A study of Mus musculus with 40 samples.

Results

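Kidneys of this mouse series were divided by the state of their circadian clock, as read from their own RNA. For each kidney library the level of Dbp minus the level of Arntl was taken, both as log2(CPM + 1), where CPM are counts scaled to the total of the library, and the libraries above the median difference formed a high class and those below it a low class. Of the 40 libraries of the series 20 were kidneys, and 1 of these (a1) was left out because it was near-identical to another (a12). The remaining 19 gave 9 high libraries, 9 low libraries and 1 library at the median (a14), which entered neither class, so 18 libraries were compared. The classes were chosen from measured values, so Dbp and Arntl are described here and not tested.

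The study compared EC-EGFR-KO mice, in which a Cre recombinase under the Tie2 (Tek) promoter deletes the epidermal growth factor receptor gene Egfr in endothelial cells, with EC-EGFR-WT mice, which carry the same Cre but no loxP sites. The Tie2 promoter is also active in blood-forming cells. Mice of both genotypes received a standard fat diet (SFD, 10% of energy from fat) or, from 6 weeks of age and for 18 weeks, a high fat diet (HFD, 60%), with 5 mice for each genotype and diet. The high class held 3 WT SFD, 2 WT HFD, 2 KO SFD and 2 KO HFD kidneys, and the low class held 2 WT SFD, 2 WT HFD, 3 KO SFD and 2 KO HFD kidneys. The near-identical libraries carry different genotype labels, KO HFD for a1 and WT HFD for a12. The genotype of a12 is therefore uncertain, and it is counted here by its label. The time of day at which tissues were taken and the sex of the mice are not given in the sources used here.

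The mammalian clock is a loop of transcription and repression that runs in nearly every cell. The activators CLOCK and BMAL1 (the product of Arntl), or NPAS2 in place of CLOCK, bind E-box motifs and drive the Per and Cry repressors, the nuclear receptors Nr1d1 and Nr1d2, and the PAR bZIP factors Dbp, Tef and Hlf. REV-ERB proteins (Nr1d1, Nr1d2) repress Arntl, Npas2, Clock and Nfil3 through ROR elements, and DBP, TEF and HLF act through D-boxes, where NFIL3 opposes them. In the kidney the clock is known for its daily control of tubular transport, of blood-pressure hormones and of the metabolism of foreign compounds.

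The score ranged in the high class from 2.76 to 6.58 with a median of 4.44, and in the low class from -1.57 to 1.64 with a median of 0.54. Next to the boundary lay a13 (1.64, low), a14 (1.67, at the median) and a5 (2.76, high). Levels below are in FPM, the same unit on the TMM-normalized library size. Dbp, a transcription factor whose RNA has one of the widest daily swings known, ranged from 58.5 to 176 FPM (median 86.2) in the high class and from 8.19 to 36.2 FPM (median 23.8) in the low class. Arntl, the partner of CLOCK, ranged from 0.818 to 8.05 FPM (median 3.01) in the high class and from 11 to 26.3 FPM (median 16.2) in the low class. The scores were spread from -1.57 to 6.58, and the boundary between the classes was set by the median. Whether the libraries form 2 separate clusters was not tested. Every genotype and diet group had kidneys on both sides.

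**Figure D1:**
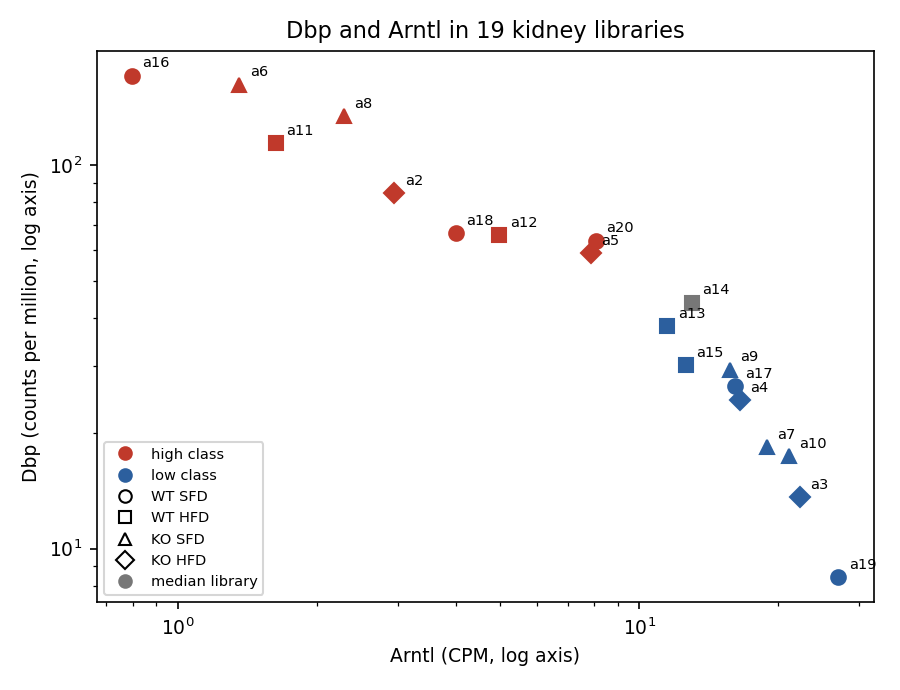
Dbp (vertical axis) against Arntl (horizontal axis) in the 19 kidney libraries, both in CPM on log axes, with colours for the class and symbols for genotype and diet. The points fall along a band from a19 (score -1.57) to a16 (score 6.58), and the grey point is the median library a14 (score 1.67).

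The depth of the libraries was 19643033 to 48833447 counts in the high class and 22301181 to 25669396 in the low class. The deepest library was a12, the one near-identical to the omitted a1 (median chi-square over genes 0.0269, where sampling noise alone gives 0.455 and no other kidney pair was below 1.62). Egfr itself, the targeted gene, which tubular cells express too, ranged from 21.6 to 64.0 FPM in the 9 kidneys labelled WT, a12 among them. It ranged from 34.8 to 60.2 FPM in the 9 KO kidneys used here, so the ranges overlapped. Its means were 47.6 FPM in the high class and 49.2 FPM in the low class.

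The other core clock genes check the name of the split and are likewise given without a test, because they move with the genes that made it. Of 26 listed clock genes 24 passed the filter on low counts, and Rora was at 0 in every kidney library. Npas2, the alternative partner of BMAL1, ranged from 0.818 to 5.14 FPM (median 1.90) in the high class and from 5.21 to 17.6 FPM (median 12.2) in the low class. Those ranges did not overlap, so Npas2 lay on the side of Arntl in all 18 libraries. Nfil3, the repressor at D-boxes, had medians of 3.66 FPM (high) and 10.1 FPM (low), and Clock had medians of 36.9 FPM (high) and 50.2 FPM (low), both with overlapping ranges.

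On the side of Dbp stood the genes of the repressive arm and the PAR bZIP factors. Ciart, a repressor of CLOCK and BMAL1, ranged from 3.04 to 35.3 FPM (median 9.73) in the high class and from 1.26 to 5.68 FPM (median 2.09) in the low class. Per3 had medians of 37.1 FPM (high) and 19.2 FPM (low), Per2 of 29.6 and 18.6 FPM, and Bhlhe41, another repressor of the loop, of 3.58 and 1.48 FPM. Tef had medians of 379 FPM (high) and 258 FPM (low), Nr1d2 of 140 and 89.4 FPM, Cry2 of 25.5 and 17.8 FPM, and Hlf of 127 and 103 FPM. All of these overlapped between the classes.

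Several clock genes did not follow the split. Nr1d1 had a log2 difference between high and low of 0.23 (SE 0.14), Cry1 of -0.13 (SE 0.24), Per1 of 0.15 (SE 0.57) and Bhlhe40 of 0.01 (SE 0.33). Per1 and Bhlhe40, which are also induced as immediate-early genes, were highest in 3 kidneys on both sides of the split: a8 in the high class, at 147 and 227 FPM, and a9 and a17 in the low class, where the highest values were 157 and 273 FPM. The casein kinase genes Csnk1d and Csnk1e, which act on PER proteins, had log2 differences of -0.06 (SE 0.04) and -0.23 (SE 0.16).

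**Figure D2:**
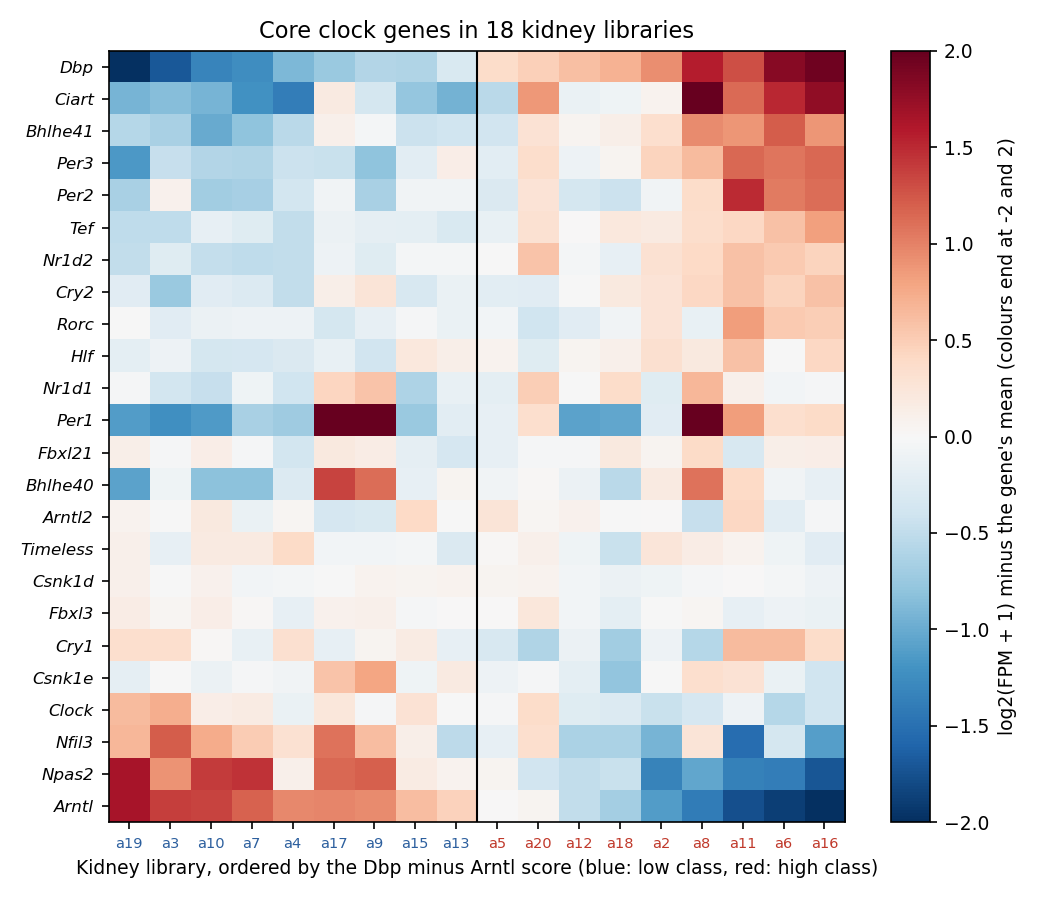
Core clock genes (rows, ordered by the difference between classes) in the 18 kidney libraries (columns, ordered by the score), coloured by log2(FPM + 1) minus the gene's mean. Arntl and Npas2 are red (above the gene's mean) towards the low end and Dbp towards the high end, while Per1 and Bhlhe40 stand out in a8, a9 and a17.

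The binding motifs of this loop were looked up in the promoters that RefSeq gives for the build GRCm38.p6, in the 250 bases before each start and on both strands, with CACGTG as the E-box, TTATGTAA or TTACGTAA as the D-box and TAGGTCA or TGGGTCA as the core of the ROR element. Printed here are 3 clock genes, chosen as an example of each motif, and all 5 genes past the test below whose window held an E-box. Capitals mark the motif, and the sequences run 5′ to 3′ on the strand of the gene. Ciart (chr3:95882229-95882478, minus strand) held 3 E-boxes, Per3 (chr4:151044666-151044915, minus strand) held 2 D-boxes, and Nfil3 (chr13:52981040-52981289, minus strand) held the ROR core on the opposite strand. Among the genes higher in the high class, Tspan4 (chr7:141476130-141476379, plus strand, 1 of its starts), Pnpla7 (chr2:24975783-24976032, plus strand) and Pdk2 (chr11:95041372-95041621, minus strand, 1 of its starts) each held 1 E-box, as did Cgn (chr3:94786483-94786732, minus strand) and Osbpl8 (chr10:111164552-111164801, plus strand) among the lower genes.
Ciart: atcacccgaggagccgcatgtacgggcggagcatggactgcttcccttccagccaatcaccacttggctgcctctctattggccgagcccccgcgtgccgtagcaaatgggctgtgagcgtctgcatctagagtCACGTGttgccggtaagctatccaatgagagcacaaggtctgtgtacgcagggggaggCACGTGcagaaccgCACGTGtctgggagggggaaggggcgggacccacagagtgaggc
Per3: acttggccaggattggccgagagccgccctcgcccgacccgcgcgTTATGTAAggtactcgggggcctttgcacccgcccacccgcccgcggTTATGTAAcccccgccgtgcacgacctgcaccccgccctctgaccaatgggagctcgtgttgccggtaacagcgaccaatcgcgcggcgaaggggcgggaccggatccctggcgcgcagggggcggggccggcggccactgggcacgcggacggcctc
Nfil3: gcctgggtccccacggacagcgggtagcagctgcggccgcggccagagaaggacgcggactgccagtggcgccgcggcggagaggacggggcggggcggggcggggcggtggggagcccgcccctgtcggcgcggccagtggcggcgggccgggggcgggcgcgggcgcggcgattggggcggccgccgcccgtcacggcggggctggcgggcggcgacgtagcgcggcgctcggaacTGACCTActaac
Tspan4: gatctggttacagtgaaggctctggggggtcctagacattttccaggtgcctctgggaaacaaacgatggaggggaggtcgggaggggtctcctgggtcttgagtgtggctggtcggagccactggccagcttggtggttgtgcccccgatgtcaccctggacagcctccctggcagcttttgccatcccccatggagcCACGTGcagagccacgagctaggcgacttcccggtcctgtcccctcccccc
Pnpla7: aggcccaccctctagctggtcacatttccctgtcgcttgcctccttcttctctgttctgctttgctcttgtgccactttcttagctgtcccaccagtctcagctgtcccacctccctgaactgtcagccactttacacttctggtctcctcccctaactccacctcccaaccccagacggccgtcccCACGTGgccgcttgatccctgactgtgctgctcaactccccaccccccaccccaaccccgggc
Pdk2: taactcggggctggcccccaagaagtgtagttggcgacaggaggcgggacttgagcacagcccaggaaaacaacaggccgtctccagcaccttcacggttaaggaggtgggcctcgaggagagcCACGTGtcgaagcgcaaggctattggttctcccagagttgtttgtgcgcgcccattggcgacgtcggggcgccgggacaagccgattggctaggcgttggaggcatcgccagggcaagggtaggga
Cgn: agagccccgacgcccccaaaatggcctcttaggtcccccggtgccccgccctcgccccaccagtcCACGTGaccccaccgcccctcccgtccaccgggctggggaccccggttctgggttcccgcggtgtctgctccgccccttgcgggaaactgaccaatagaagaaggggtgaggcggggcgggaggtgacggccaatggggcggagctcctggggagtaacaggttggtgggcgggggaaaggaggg
Osbpl8: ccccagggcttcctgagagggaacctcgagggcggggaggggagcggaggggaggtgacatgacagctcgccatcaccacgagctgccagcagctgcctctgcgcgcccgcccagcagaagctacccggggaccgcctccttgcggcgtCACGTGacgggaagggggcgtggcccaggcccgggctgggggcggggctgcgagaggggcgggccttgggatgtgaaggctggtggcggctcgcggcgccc

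Promoters were held for 10450 of the 15130 genes tested, and 9.51% of these had an E-box, 0.794% a D-box and 5.57% the ROR core in that window. Among the clock genes with a promoter, 5 of 19 had an E-box (Bhlhe41, Ciart, Cry1, Per1 and Tef). Among the genes other than clock genes that differed between the classes (next paragraphs), an E-box stood before 3 of the 20 higher genes with a promoter (Pdk2, Pnpla7 and Tspan4) and 2 of the 18 lower genes (Cgn and Osbpl8). None of these 38 genes had the D-box or the ROR core letters in the window. A match of letters describes the sequence and does not show binding.

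Genes outside the clock were tested with edgeR's quasi-likelihood test across all genes, with the 4 genotype and diet groups as covariate, and Benjamini-Hochberg adjustment. Of 15106 genes other than clock genes, 51 had an adjusted p under 0.05 (0.338%), 28 higher in the high class (0.185%) and 23 lower (0.152%). That adjustment ran over all genes tested, among them Dbp, Arntl and clock genes that move with them, whose small p-values lower the adjusted p of the others. Adjusted over the 15106 other genes alone, a step added after the data were seen, 29 genes passed, 16 of them higher, and 10 were also past the limits on fold and FPM given next. Of the genes named below, Cyp2a5, Por, Inmt, Pdk2, Pnpla7, Tfrc, Rdh10 and Alms1-ps1 then had an edgeR adjusted p of 0.0524 and Nat8f6 of 0.0565, and so did not pass. Of the 51, 15 also had a fold change over 1.5 and over 5 FPM in at least 1 class (0.0993%), 7 of them higher (0.0463%) and 8 lower (0.0530%). Before adjustment 1772 genes had a p under 0.05. The classes did not overlap for 6 of the 51, against 7 of all 15106 genes (0.0463%), and 47 of the 51 were protein-coding. The count rested on single libraries: leaving out 1 gave 5 genes (without a6), 6 (without a19) or 9 (without a2) at the low end and 115 (without a20) at the high end, and 5 of the 51 passed in all 18 such fits. It also depended on covariates added after the data were seen, with 5 genes when the mean of 4 proximal tubule genes was added and 67 when that of all 14 listed markers was.

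**Figure D3:**
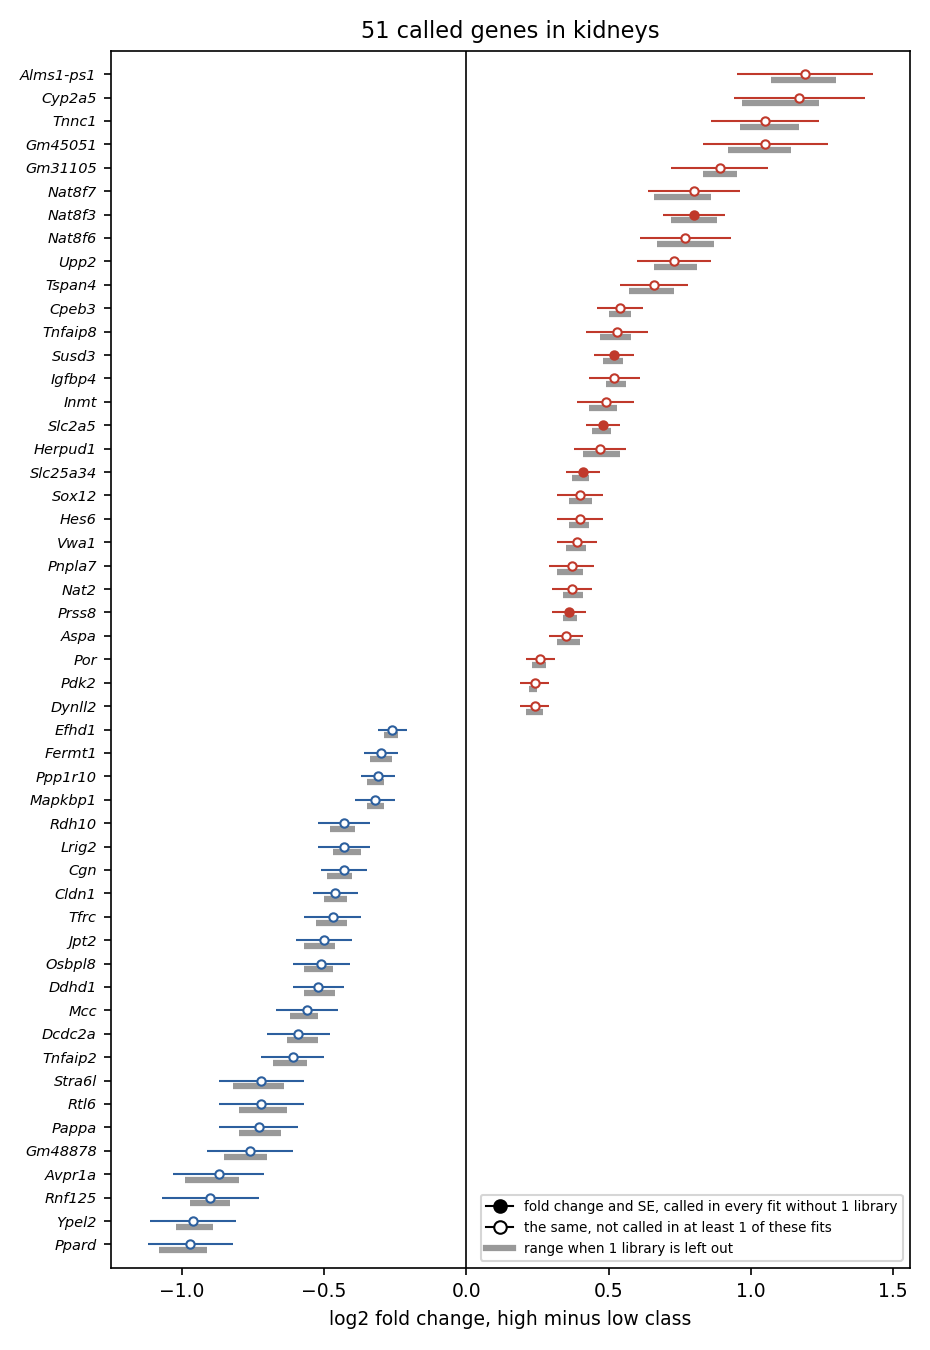
The log2 fold change (high minus low class, horizontal axis) with its SE for the 51 genes past an adjusted p of 0.05, with grey bars for the range when 1 of the 18 libraries is left out. Filled points mark the 5 genes that passed in every such fit (Nat8f3, Susd3, Slc2a5, Slc25a34 and Prss8), and no grey bar crosses 0. Of the 51, 29 passed when clock genes were left out of the adjustment.

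Slc2a5 (ENSMUSG00000028976, chromosome 4, 150119283 to 150144169), the fructose transporter GLUT5 of the proximal tubule, ranged from 87.4 to 117 FPM (median 106) in the high class and from 61.5 to 88.5 FPM (median 77.5) in the low class. Only the lowest high kidney lay below the highest low kidney. The log2 fold change was 0.48 (SE 0.06, adjusted p = 0.00613 from the edgeR test, n = 9 and 9). Slc25a34, a mitochondrial carrier, ranged from 42.2 to 55.3 FPM in the high class and from 31.3 to 39.8 FPM in the low class without overlap (log2 fold change 0.41, SE 0.06, edgeR adjusted p = 0.00892). Prss8 (chromosome 7, 127925716 to 127930104), which encodes prostasin, a membrane-anchored protease that activates the epithelial sodium channel, ranged from 316 to 430 FPM (median 389) in the high class and from 264 to 320 FPM (median 292) in the low class. Its log2 fold change was 0.36 (SE 0.06, edgeR adjusted p = 0.00938), and the classes overlapped only between 316 and 320 FPM. Of 42 tested genes on a list of tubular transport none passed the test, and their median log2 difference was -0.02. Cldn8, a claudin of the distal nephron, had the smallest adjusted p on that list (0.0631, edgeR), with means of 50.2 FPM in the high class and 62.4 FPM in the low class.

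Of 33 tested genes on a list of drug and steroid metabolism 2 passed, Cyp2a5 and Por, both higher, where 0.338% of all genes passed, and neither passed with clock genes left out of the adjustment (edgeR adjusted p = 0.0524 for both). Of the 33, 24 had a difference above 0 (median 0.10), against 49.4% of all genes tested (median -0.00). This list was chosen with earlier results of these data known. Cyp2a5 (ENSMUSG00000005547, chromosome 7, 26835305 to 26843548), a cytochrome P450 that oxidises coumarin and nicotine, ranged from 83.3 to 556 FPM (median 144) in the high class and from 50.2 to 180 FPM (median 77.8) in the low class. Over all groups together the ranges overlapped widely, with the highest values in a16, a6 and a8, 3 of the 4 kidneys with the highest scores. Within each genotype and diet group, of 2 or 3 kidneys per class, they did not overlap. The classes came closest in WT SFD, with 144 FPM in a20 (high) and 140 FPM in a17 (low). Its log2 fold change was 1.17 (SE 0.23, edgeR adjusted p = 0.0438), and it passed in 4 of the 18 fits without 1 library. Reads may be shared with its close relative Cyp2a4. Por, the reductase that passes electrons to all microsomal cytochromes P450, had medians of 365 FPM (high) and 317 FPM (low), with a log2 fold change of 0.26 (SE 0.05, edgeR adjusted p = 0.0438). Inmt, a methyltransferase for indoles and thioethers, had medians of 1495 FPM (high) and 1027 FPM (low), and Nat2, an arylamine acetyltransferase, of 21.2 and 17 FPM. Upp2, a uridine phosphorylase, had medians of 23.6 FPM (high) and 14.9 FPM (low), with a log2 fold change of 0.73 (SE 0.13, edgeR adjusted p = 0.0230).

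Neighbouring N-acetyltransferase-like genes on chromosome 6 were among those past the test. Nat8f3 (ENSMUSG00000051262, 85732513 to 85765754) ranged from 79.8 to 183 FPM (median 132) in the high class and from 65.4 to 83.4 FPM (median 74.4) in the low class, with 1 high kidney inside the range of the low ones. The log2 fold change was 0.80 (SE 0.11, edgeR adjusted p = 0.00621). Nat8f7 ranged from 40.4 to 110 FPM in the high class and from 26.1 to 39.1 FPM in the low class, without overlap, and Nat8f6 had medians of 256 FPM (high) and 144 FPM (low). The neighbouring pseudogene Alms1-ps1 (85721925 to 85756526) had medians of 12.4 and 5.57 FPM. These values are not independent of each other: the Nat8f genes are near paralogs that may share reads, and Alms1-ps1 overlaps Nat8f3 on the other strand, while the strand setting of the counting is not given in the sources used here. Of the 51 genes, 27 overlap another annotated gene on either strand.

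Tspan4, a tetraspanin, had medians of 54.4 FPM (high) and 37.2 FPM (low), with a log2 fold change of 0.66 (SE 0.12, edgeR adjusted p = 0.0273). Tspan4 and Por were the 2 of 14 tested genes on a list of known clock output genes that passed, both higher. Over all genes 0.338% passed in either direction, and 0.185% passed and were higher. Por did not pass with clock genes left out of the adjustment. Of the 20 genes listed, 5 (Alas1, Leo1, Lonrf3, Tsc22d3 and Usp2) were at 0 counts in every kidney library. The list of clock output genes was also chosen with earlier results of these data known. Susd3, a membrane protein, ranged from 55.5 to 108 FPM (median 76.1) in the high class and from 42.6 to 72.5 FPM (median 55.4) in the low class (log2 fold change 0.52, SE 0.07, edgeR adjusted p = 0.00613). Within each diet and genotype group the 2 classes differed for Susd3 by 0.38 to 0.61 on the log2 scale. Igfbp4, which binds insulin-like growth factors, had medians of 1159 FPM (high) and 797 FPM (low), and Herpud1, a component of protein quality control in the endoplasmic reticulum, of 341 and 243 FPM. In fuel metabolism, Pdk2, a kinase that inhibits pyruvate dehydrogenase, had medians of 244 and 202 FPM, and Pnpla7, a lysophospholipase, of 26.0 and 21.3 FPM. Aspa, which hydrolyses N-acetylaspartate, had medians of 180 and 132 FPM, and Cpeb3, a regulator of mRNA translation, of 68.5 and 46.3 FPM.

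Among the genes lower in the high class, Ppard (ENSMUSG00000002250, chromosome 17, 28232700 to 28301474), the nuclear receptor PPAR-delta, ranged from 11.3 to 22.3 FPM (median 15.7) in the high class and from 20 to 46.2 FPM (median 35.7) in the low class. Its log2 fold change was -0.97 (SE 0.15, edgeR adjusted p = 0.0148), and the overlap reached from the lowest low kidney to 22.3 FPM. Ypel2, of a family of conserved zinc-binding proteins, ranged from 9.10 to 25.0 FPM (median 17.8) in the high class and from 22.5 to 48.2 FPM (median 30.4) in the low class (log2 fold change -0.96, SE 0.15, edgeR adjusted p = 0.0148). Avpr1a (ENSMUSG00000020123, chromosome 10, 122448499 to 122453452), the V1a receptor of vasopressin, ranged from 3.76 to 9.61 FPM (median 5.45) in the high class and from 7.59 to 14.3 FPM (median 10.7) in the low class. Its log2 fold change was -0.87 (SE 0.16, edgeR adjusted p = 0.0252). Gm48878, next to Avpr1a, was lower too (medians 1.56 and 2.50 FPM), and both are overlapped by Gm48877 on the other strand.

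Cldn1, a tight-junction claudin, ranged from 13.1 to 16.2 FPM in the high class and from 16.6 to 24.0 FPM in the low class without overlap (log2 fold change -0.46, SE 0.08, edgeR adjusted p = 0.0230). Cgn, which encodes the tight-junction protein cingulin, had medians of 24.1 FPM (high) and 32.9 FPM (low). Tfrc, the transferrin receptor, had medians of 71.9 and 104 FPM, and Rdh10, a retinol dehydrogenase, of 75.3 and 99.3 FPM. Pappa, a protease of IGF-binding proteins that include the product of Igfbp4, had medians of 3.51 FPM (high) and 5.45 FPM (low), with a log2 fold change of -0.73 (SE 0.14, edgeR adjusted p = 0.0278). Igfbp4 had the opposite direction, with a log2 fold change of 0.52 (SE 0.09, edgeR adjusted p = 0.0155).

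**Figure D4:**
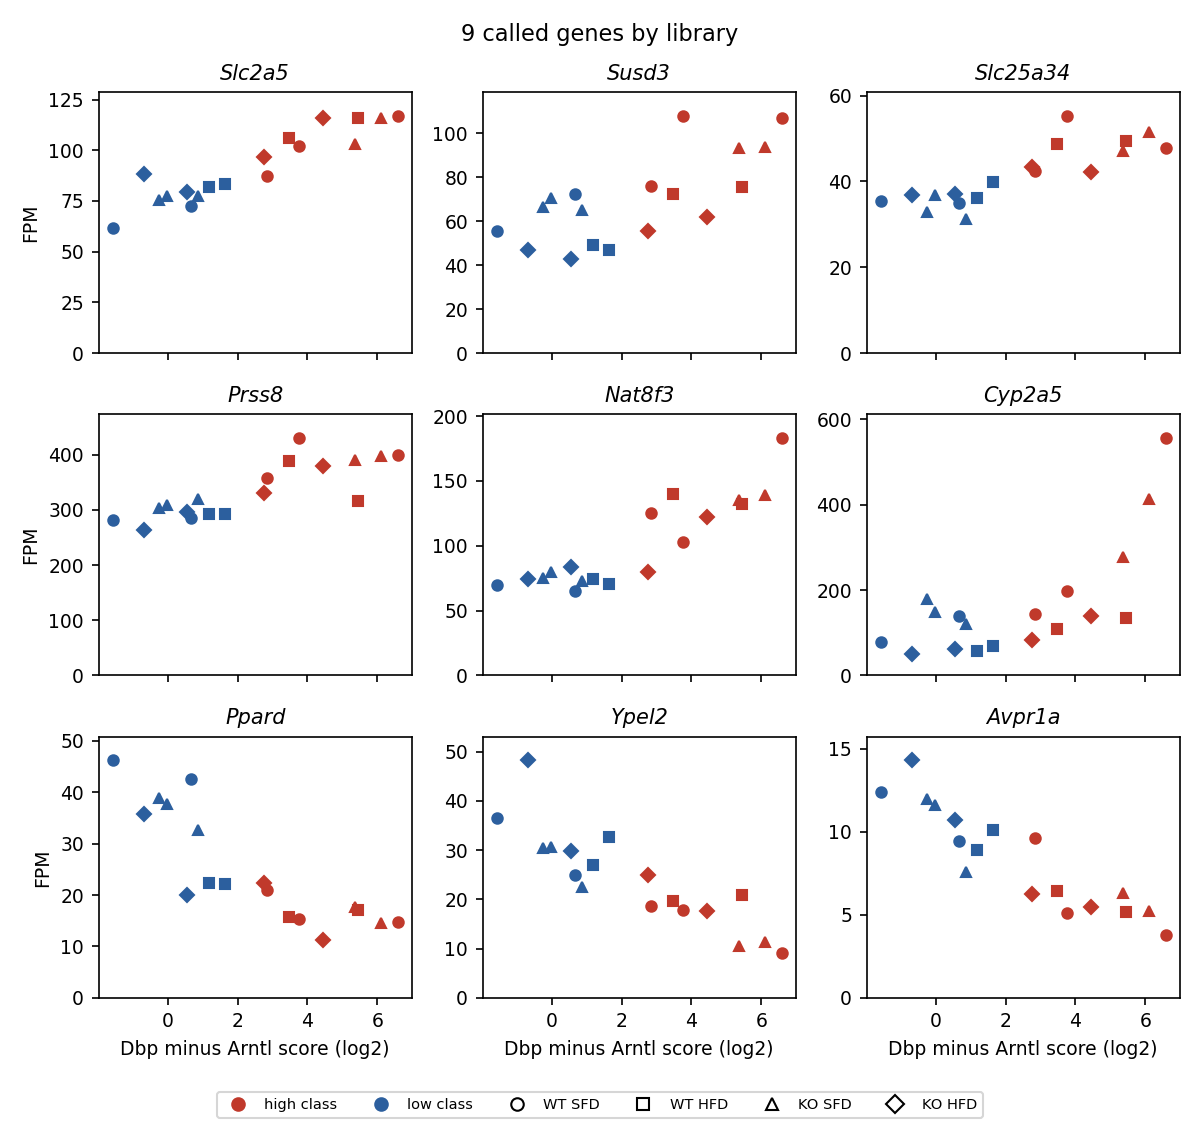
FPM (vertical axes, from 0) of 9 genes past the test against the Dbp minus Arntl score (horizontal axis) in the 18 kidney libraries, with colours for the class and symbols for genotype and diet. Slc2a5 runs from 61.5 to 117 FPM, Cyp2a5 reaches 556 FPM in a16, and Ppard, Ypel2 and Avpr1a have their lower values at high scores.

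Markers of cell types and stress genes differed between libraries as well, and their part in these results was not tested. None of the marker lists had a gene past the test. The 21 tested immediate-early genes all had differences below 0 (median -0.63), with a summed level of 274 to 3200 FPM in the high class and 303 to 3739 FPM in the low class. Only a8 (high, 3200 FPM), a17 (low, 3265 FPM) and a9 (low, 3739 FPM) exceeded 412 FPM. Without these 3 kidneys 2 genes passed in place of 51 (Aspa and Herpud1), with 1617 at an unadjusted p under 0.05 against 1772. With the mean of the immediate-early genes as a covariate in all 18 kidneys 41 passed, 34 of the 51 among them. Endothelial markers (Cdh5 at 0) had differences below 0 for 9 of 10 genes, and their sum was 265 to 683 FPM in the high class and 596 to 749 FPM in the low class. Podocyte markers had differences below 0 for 7 of 8 genes, with sums of 104 to 306 FPM in the high class and 239 to 342 FPM in the low class. For both lists the 3 lowest sums were those of a18, a16 and a6, all in the high class. Without these 3 kidneys, a comparison added after the data were seen, 4 genes passed (Cpeb3, Nat8f3, Slc2a5 and Susd3) and 732 reached an unadjusted p under 0.05. Of these libraries a6 and a16 also had the highest scores. In whole kidney, fewer cells of a type and less RNA per cell cannot be told apart.

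**Figure D5:**
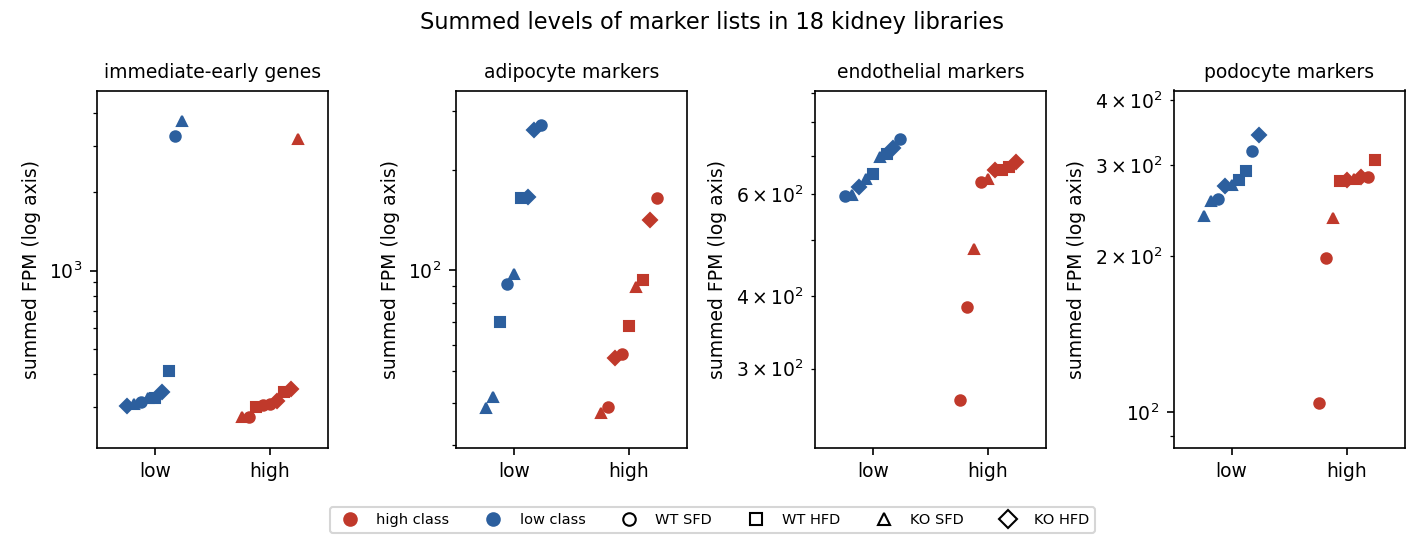
Summed FPM (vertical axes, log scale) of 4 marker lists in the 9 low and 9 high kidney libraries, with symbols for genotype and diet. A single high library (3200 FPM) and a pair of low ones (3265 and 3739 FPM) stand apart for immediate-early genes, and the lowest endothelial (265 FPM) and podocyte (104 FPM) sums belong to high libraries.

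Proximal tubule markers, all above 0 counts as the label of the tissue asks, had differences above 0 for 10 of 14 genes (median 0.11), with sums of 38103 to 69837 FPM in the high class and 35959 to 53318 FPM in the low class. The remaining nephron lists had median differences of -0.18 (loop of Henle), -0.04 (distal convoluted tubule) and -0.01 (collecting duct). Adipocyte markers were below 0 for 9 of 9 genes (median -0.55), with sums of 37.4 to 165 FPM in the high class and 38.8 to 272 FPM in the low class, and interstitial and mural markers (Cnn1 and Tagln at 0) for 9 of 10 (median -0.19), with sums of 109 to 294 and 198 to 325 FPM. Immune markers (Cd3e at 0) were below 0 for 12 of 13 genes (median -0.16, sums of 263 to 597 and 288 to 548 FPM), red blood cell markers (Alas2 at 0) above 0 for 4 of 4 (median 0.25, sums of 1164 to 3050 and 749 to 2248 FPM), and the 2 tested adrenal markers had a median of -0.07 (Cyp11a1, Cyp11b2 and Th at 0). Sex-biased renal genes had median differences of 0.05 (male-biased, 12 genes) and 0.12 (female-biased, 11 genes).

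No gene passed on the lists of sterol and fatty acid synthesis, PPAR-alpha targets, glucocorticoid response, heat shock and temperature, or cell cycle. Of 29 genes of sterol and fatty acid synthesis 24 were below 0 (median -0.18), among them Scd2, a desaturase, with means of 68.6 FPM (high) and 92.6 FPM (low) and an edgeR adjusted p of 0.141. Of 25 PPAR-alpha targets 20 were above 0 (median 0.05), of 18 glucocorticoid-responsive genes 14 were below 0 (median -0.12), and of 27 heat shock and temperature genes 21 were below 0 (median -0.04). Of 21 cell cycle genes 12 were below 0 (median -0.03). Wee1, a mitotic kinase gene with E-boxes known from the liver, had means of 20.7 FPM (high) and 13.3 FPM (low), with an edgeR adjusted p of 0.142.

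Whether the difference between classes depended on diet was asked with an interaction term in the same 18 libraries. In the edgeR test 0 of 15106 genes passed (0%), and 307 reached an unadjusted p under 0.05. In simulated data with known changes, the interaction test called 12% of 1.5-fold changes and 58% of 2-fold changes. The test between classes called 76% and 96% of them. The changes were set only in genes above a limit on mean counts, so these shares need not hold for genes with few counts. Real interactions of such sizes could therefore have been missed. For Ppard the high minus low difference was -1.34 (WT) and -1.13 (KO) under SFD, and -0.42 (WT) and -0.72 (KO) under HFD, on the log2 scale. The interaction estimate for Ppard was 0.69 (SE 0.26, unadjusted p = 0.0177 in edgeR), and Ppard did not pass. The smallest unadjusted interaction p-values in edgeR belonged to Abcb1b (5e-04) and Slc13a1 (0.00051). Their estimates were -0.78 (SE 0.18) and -0.49 (SE 0.11), and neither gene passed. Slc2a5 had group differences of 0.33 to 0.59 and Cyp2a5 of 0.94 to 1.26. Within the SFD kidneys alone 3 genes passed, Ppard and Tnnc1 among them, and within the HFD kidneys alone 0 passed, with 727 at an unadjusted p under 0.05 in edgeR.

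The aorta libraries, which took no part in the kidney split, were divided by the same rule on their own Dbp and Arntl, leaving out R-12, which was near-identical to R-1. The labels of this pair differ in genotype as well (KO SFD for R-12, WT SFD for R-1), and R-1 is counted by its label. The high class of aortas had scores of -0.94 to 7.40 and the low class of -3.36 to -1.29. Of 14273 genes other than clock genes 6911 passed (48.4%). Markers of other cell types differed between these aortas too, and their part in that count was not tested. Hba-a2, a haemoglobin gene of red blood cells, had means of 7846 FPM (high) and 1388 FPM (low), a log2 fold change of 2.70 (SE 0.60, edgeR adjusted p = 0.00234). Of the interstitial and mural markers 1 of 9 was higher and 6 were lower past the test (summed levels of 35514 to 45467 FPM in the high class and 32237 to 44669 FPM in the low class), and of the endothelial markers 4 of 10 were lower (408 to 1367 and 782 to 1582 FPM). Immune markers were higher for 3 of 11 (371 to 2646 and 282 to 1099 FPM), and none of 9 adipocyte markers passed. Of the 51 kidney genes 42 were tested in aortas and 18 passed (42.9%), 17 in the direction of the kidney and 1 (Cpeb3) in the other. That share was below the background of 48.4%, so it is no result about these genes. Their levels in aortas were: Tspan4, with means of 74.3 FPM (high) and 43.2 FPM (low) and a log2 fold change of 0.77 (SE 0.20, edgeR adjusted p = 0.00450); Avpr1a, with 5.79 and 9.35 FPM (log2 fold change -0.60, SE 0.19, edgeR adjusted p = 0.0160). For Ppard the aortic log2 fold change was -0.38 (SE 0.15), and for Nat8f3, at means of 2.27 and 2.37 FPM, it was -0.04 (SE 0.26). Slc2a5, Prss8 and Cyp2a5 were not among the genes tested in aortas.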

How the data were processed

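Total RNA was enriched for mRNA and sequenced by the study from kidneys and aortas of EC-EGFR mice. The authors deposited 1 table per tissue of raw counts per gene, without normalization, for the mouse genome GRCm38/mm10. The submitters' processing notes name HISAT2 2.1.0 and featureCounts, while the methods of the paper name another aligner. Whether counting used strand, and how multi-mapping reads were treated, is not given in the sources used here. Samples were grouped by the labels of genotype, diet and tissue. All 40 columns of counts were mapped to a sample by its label.

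Counts were normalized by TMM and filtered with filterByExpr by class. The classes were compared with the robust quasi-likelihood test of edgeR 4.0.16 (R 4.3.3), with 4 genotype and diet groups as covariate and Benjamini-Hochberg adjustment over all genes tested, including clock genes. An adjustment without the clock genes was added after the data were seen. A gene passed at an adjusted p under 0.05. The biological coefficient of variation was 19.6% in kidneys and 20.9% in aortas. The scripts were tested on simulated data with known changes. DESeq2 1.42.0 was an alternative. Gene positions and overlaps are from GENCODE M21, promoters from RefSeq. Gene symbols altered in the tables were restored by gene ID. The labels name no batch, and p-values measure the spread between these mice.

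Genes named are all core clock genes. Named too are genes that passed with a fold change over 1.5 and over 5 FPM (up to 12 each way). From each list come the genes that passed (up to 4, or the 2 with the smallest p). Added to these are Egfr and the genes with the 2 smallest interaction p-values. The other named genes past the test were chosen after their values were seen. The members of the split and the gene lists were chosen with earlier results of these data known. Alternatives planned for the split were other normalizations, filters and tests, the continuous score, other splits and covariates, single diets and leaving out each library. Alternatives added after the data were seen used marker covariates or left out a6, a16 and a18.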

Additional observations from a re-analysis of the deposited data

Results flagged for a closer look

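Within each class, the kidney with the highest or lowest value was compared with its nearest neighbour relative to the whole range of the class. Of 144 class values examined 13 stood apart, where chance gives about 7.20 (1 in 20). In the high class, a12 had a total of 48833447 counts against 31369285 for the next library, and Nat8f7 at 110 FPM against 69.7 FPM. The high kidney a8 stood apart for Ciart at 35.3 FPM (next 19.1), Bhlhe40 at 227 FPM (next 140) and Per1 at 147 FPM (next 59.1). Its sums were 3200 FPM for immediate-early genes (next 351) and 2987 FPM for glucocorticoid-responsive genes (next 1980). The high kidney a20 stood apart for Clock at 58.2 FPM (next 43.7) and Avpr1a at 9.61 FPM (next 6.45), a2 for Ddhd1 at 10.3 FPM (next 13.1), and a18 for summed PPAR-alpha targets at 8744 FPM (next 7151). In the low class, a10 had Rnf125 at 1.83 FPM (next 1.33) and a3 had summed female-biased renal genes at 887 FPM (next 1125).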

How the results depend on the processing

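The number of genes past the test moved with single libraries and with covariates. Each of the 51 genes kept its direction in all 18 alternatives in which it could be fitted and in all 18 fits without 1 library, which share most of their libraries. Counts are given as all genes past an adjusted p of 0.05, then those also past the fold and FPM limits (51 and 15 with all 18 libraries). With the adjustment over genes other than clock genes, added after the data were seen, 29 and 10 passed, because clock genes with small p-values no longer entered it; the other alternatives here adjust over all genes tested. Leaving out 1 library gave 5 to 115 and 1 to 21 genes. The lowest counts were 5 and 1 without a6, 6 and 1 without a19, and 9 and 3 without a2, and the highest was 115 without a20. Counts were also moved by over 1.5 times without a10 (15), a3 (16), a15 (17), a16 (23), a7, a13 or a17 (25 each), a8 or a9 (28 each), a11 (29) or a18 (30). The DESeq2 Wald test gave 199 and 29 genes, and the continuous score over 19 libraries 251 and 4, 49 of the 51 among them, where the fold is per SD of the score. The 6 highest against the 6 lowest libraries gave 43 and 24. A split by Per3, Nr1d2, Tef, Npas2 and Clock, which moved a5 from high to low, a13 from low to the median and a14 from the median to high, gave 7 and 2. Without a8, a9 and a17 the counts were 2 and 0, in SFD kidneys alone 3 and 2, and in HFD kidneys alone 0 and 0. The cause of these shifts was not tested. The fits that left libraries out also had fewer of them, and the part of that smaller number was not tested either. Added after the data were seen, leaving out a6, a16 and a18 gave 4 and 1. A covariate for proximal tubule content was tried in 2 forms, also after the data were seen. The first, the mean of Slc34a1, Lrp2, Miox and Slc27a2, gave 5 and 1 genes (2549 at an unadjusted p under 0.05), and the second, the mean of the whole list of 14 markers, gave 67 and 13, so the count depended on which genes formed the covariate. The other alternatives of the kidney counts, among them DESeq2 size factors, other filters, no genotype-diet groups, the immediate-early covariate and no a12, stayed within 1.5 times for all genes past the test, and without a filter 68 and 10 passed. The diet interaction gave 0 genes in every alternative except that without a filter on low counts, where 339 passed, 52 of them not tested with the filter. In aortas, 6911 genes became 3968 without R-11 and R-16, 3107 with Myh11, Acta2, Tagln and Cnn1 as covariate (added after the data were seen), and 5190 to 8011 without 1 library. No paired analysis was possible because the labels give each library a number of its own.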

Other observations

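With the score as a continuous measure over all 19 kidneys, edgeR's quasi-likelihood test with Benjamini-Hochberg adjustment found 251 of 15220 genes (1.65%), 123 rising with the score and 128 falling. Values are log2 slopes per SD of the score (2.43). The genes named here were chosen after their values were seen, and were not past the test in the split. Slc16a1, a lactate and monocarboxylate transporter, fell with a slope of -0.69 (SE 0.08, adjusted p = 9.4e-05, mean 71.6 CPM, counts scaled to the library total). Ndrg1, a gene of differentiation and hypoxia that is abundant in kidney, fell with a slope of -0.44 (SE 0.06, adjusted p = 7.3e-04, mean 2039 CPM). Itga6 and Npnt, an integrin subunit and a basement membrane protein, fell with slopes of -0.35 (SE 0.05) and -0.34 (SE 0.04). Wee1 rose with a slope of 0.40 (SE 0.06, adjusted p = 8.5e-04), Coq10b, of the coenzyme Q pathway, with 0.37 (SE 0.05), and Cyp2a4, a steroid hydroxylase closely related to Cyp2a5, with 0.28 (SE 0.04, mean 645 CPM). Cyp2a4 and Cyp2a5 may share reads. The continuous score includes a6, a16 and a18, whose endothelial and podocyte markers were lowest, and the part of these markers in the slopes was not tested.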
